A study of Mus musculus with 6 samples.

Results

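The genes described here are 10 genes of intestinal iron uptake, export and storage, *Cybrd1*, *Slc40a1*, *Slc11a2*, *Heph*, *Tfrc*, *Fth1*, *Ftl1*, *Hmox1*, *Steap4* and *Lcn2*, out of 34866 genes in the count table. They were chosen by symbol, and *Cybrd1* and *Slc40a1* drew attention to the group because their levels varied between libraries, so that the values of these 2 genes are given as a description, without a test. RNA had been sequenced from excised intestinal adenomas of C57BL/6J mice aged between 100 and 120 days, with 3 libraries from Apc1322T/+ mice and 3 from ApcMin/+ mice. Both groups carry a germline truncation of the tumour suppressor Apc, and no normal tissue was analysed here. The ApcMin truncation removes nearly all function, whereas the longer Apc1322T product keeps some of its β-catenin binding sites. By the study's methods a sample was typically a pool of several RNA extractions from a single mouse. The position of the adenomas along the intestine is not given in the labels, nor whether each library is a different mouse, so that p-values measure the spread between these libraries. Counts per gene do not show which truncation a library carries.

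The libraries held between 23132461 and 33518324 estimated counts, and 3 counts correspond to at most 0.130 CPM (counts scaled to the size of the library), a limit that covers counting error only. All 10 genes passed the filter on low counts, which left 16536 genes. Epithelial markers were abundant in every library (*Epcam* between 10.81 and 11.41 log2 CPM), and no library was a copy of another.

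In the duodenum, the proximal part of the small intestine, the ferric reductase Cybrd1 at the brush border reduces dietary iron, the transporter Slc11a2 carries it into the enterocyte, and ferroportin, the product of *Slc40a1*, exports it to the blood with the help of the ferroxidase hephaestin (*Heph*). Iron that stays in the cell is stored in ferritin, a shell of heavy (*Fth1*) and light (*Ftl1*) chains, and transferrin receptor (*Tfrc*) takes up iron from the blood side in dividing cells. Hypoxia-inducible factor 2α is known to induce *Cybrd1*, *Slc11a2* and *Slc40a1* when iron is short, and mice of these models become anaemic as the disease advances.

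Several of these mRNAs also carry iron-responsive elements, hairpins with a CAGUGN loop to which iron regulatory proteins bind when iron is scarce. In a 5′ untranslated region (UTR) this binding blocks translation, and in the 3′ UTR of *Tfrc* it protects the mRNA, so that the second effect can be seen in mRNA counts and the first cannot. The elements are shown because they set what RNA levels of these genes can and cannot record. A search of 1 principal transcript per gene of GENCODE M21 (GRCm38) for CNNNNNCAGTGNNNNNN on the sense strand, with no G after CAGTG and all 5 bases of the upper stem paired (G-T pairs allowed), found it in 3 of the 10 genes in the 5′ UTR and in 1 gene, at 4 places, in the 3′ UTR. Over all genes the pattern was found in 0.0883% of 20379 5′ UTRs and in 0.379% of 21624 3′ UTRs. The sites follow 5′ to 3′, with the loop in capitals and 6 flanking bases on either side of the 17 matched bases.
Fth1, 5′ UTR, chr19:9982732-9982760, plus strand: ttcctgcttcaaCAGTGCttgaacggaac
Ftl1, 5′ UTR, chr7:45459779-45459807, minus strand: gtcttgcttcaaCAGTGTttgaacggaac
Slc40a1, 5′ UTR, chr1:45925465-45925493, minus strand: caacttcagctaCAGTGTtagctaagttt
Tfrc, 3′ UTR, chr16:32631219-32631247, plus strand: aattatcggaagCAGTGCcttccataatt
Tfrc, 3′ UTR, chr16:32631598-32631626, plus strand: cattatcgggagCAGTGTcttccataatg
Tfrc, 3′ UTR, chr16:32631663-32631691, plus strand: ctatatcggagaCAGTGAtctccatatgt
Tfrc, 3′ UTR, chr16:32631710-32631738, plus strand: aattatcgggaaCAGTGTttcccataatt
Within the matched bases, counted from 1 at their 5′ end, the ferritin heavy and light chain sites differ by C12T alone. The strict pattern did not match the other 6 genes, *Slc11a2* among them. This says only that no site in a UTR of the transcript searched met all of these rules, stem pairing included.

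The 3 genes of iron entry and exit showed large differences between libraries of the same genotype, while their genotype means were close for *Cybrd1* and *Slc40a1*. *Cybrd1* (chromosome 2, 71117923 to 71142926) had 10.12, 9.54 and 7.16 log2 CPM in Apc1322T replicates 1, 2 and 3 and 9.40, 6.73 and 10.69 in ApcMin replicates 1, 2 and 3. Its level thus spanned 15.6-fold within ApcMin adenomas and 7.74-fold within Apc1322T adenomas, and the means were 8.94 ± 1.57 (SD, n = 3) and 8.94 ± 2.02 (SD, n = 3) log2 CPM in Apc1322T and ApcMin. Apc1322T replicate 3 and ApcMin replicate 2 were low, and every other library lay at least 2.24 log2 units above both. *Slc40a1* (chromosome 1, 45908068 to 45926523) had 8.51, 8.55 and 6.71 log2 CPM in Apc1322T and 8.26, 6.17 and 9.08 in ApcMin adenomas. The same libraries were low, the span was 7.51-fold within ApcMin and 3.59-fold within Apc1322T, and the means were 7.92 ± 1.05 (SD, n = 3) and 7.83 ± 1.5 (SD, n = 3).

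*Slc11a2* (chromosome 15, 100387898 to 100425072), the importer at the brush border, had 9.55, 8.45 and 6.42 log2 CPM in Apc1322T replicates 1, 2 and 3 and 9.52, 7.11 and 10.22 in ApcMin replicates 1, 2 and 3. Again Apc1322T replicate 3 and ApcMin replicate 2 were the lowest of their genotypes, and ApcMin replicate 3 was the highest of all. The spread was 8.76-fold within Apc1322T and 8.62-fold within ApcMin adenomas, against a log2 fold change between genotypes of 0.80 (SE, the standard error, 0.96; edgeR adjusted p = 0.698), where a positive value means higher in ApcMin. As 1948 counts stood behind the lowest of these values, counting error is small beside the spread. In bulk tissue fewer expressing cells and less RNA per cell cannot be told apart, here and in what follows.

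*Heph* (chromosome X, 96455359 to 96574485), whose product oxidises iron at the basolateral membrane as ferroportin releases it, did not share this order. It had 7.19, 7.96 and 7.98 log2 CPM in Apc1322T and 7.31, 7.35 and 6.90 in ApcMin adenomas, so that Apc1322T replicate 3, the lowest for *Cybrd1* in that genotype, was the highest for *Heph*. The groups overlapped, and the log2 fold change was -0.55 (SE 0.24, edgeR adjusted p = 0.338). Leaving out Apc1322T replicate 1 moved this to -0.76 with an adjusted p of 0.0658 in the same test.

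**Figure D1:**
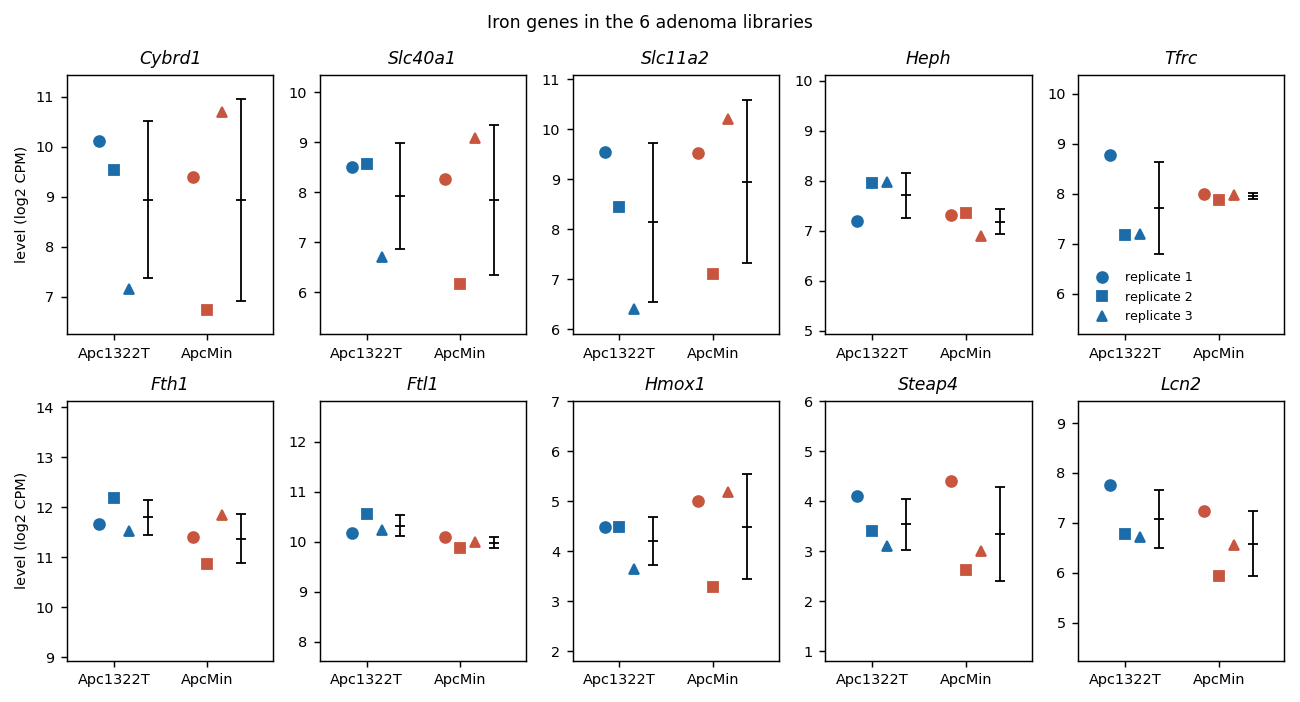
Level of each iron gene in log2 CPM (vertical axis, spanning equally many log2 units in every panel) in the 3 Apc1322T (blue) and 3 ApcMin (red) adenoma libraries; circle, square and triangle are replicates 1, 2 and 3, and the black bar is the mean with its SD. *Cybrd1*, *Slc40a1* and *Slc11a2* spread over 2.91 to 3.96 log2 units, *Ftl1* over 0.68.

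Seen against all genes, the spread of the absorption genes was in the upper tail. The range over the 6 libraries was 3.96 log2 units for *Cybrd1* (percentile 98.1 of the 16536 genes), 3.80 for *Slc11a2* (percentile 97.9) and 2.91 for *Slc40a1* (percentile 95.6), where the median gene had 0.65. *Hmox1*, *Lcn2*, *Steap4* and *Tfrc* ranged over 1.6 to 1.9 log2 units, and *Fth1*, *Heph* and *Ftl1* over 1.31, 1.08 and 0.68. The median over the 10 genes was 1.80. These figures describe a group that was taken up for its variable members and are not evidence of its variability.

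**Figure D2:**
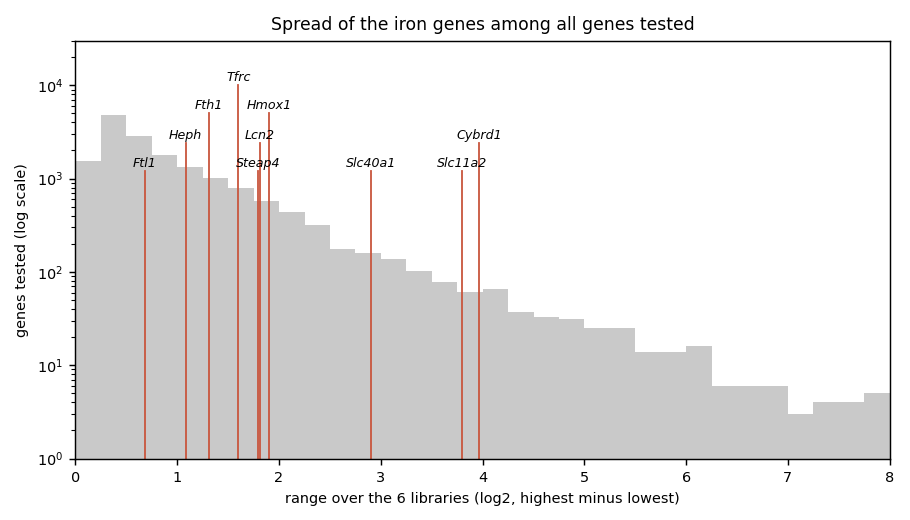
Number of genes tested (vertical, log scale) by their range over the 6 libraries in log2 units (horizontal, bins of 0.25), with the iron genes as red lines; 7 genes above 8 log2 units are not drawn. *Cybrd1*, *Slc11a2* and *Slc40a1* lie at 2.91 or more, and *Ftl1* at 0.68 lies next to the median of all genes, 0.65.

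The order of libraries was shared more widely. Within each genotype, 7 of the 10 genes were lowest in Apc1322T replicate 3 and in ApcMin replicate 2, as were 14.6% of all genes tested. This order was noticed in *Cybrd1* and *Slc40a1*, which are among the 7, and the others are *Slc11a2*, *Fth1*, *Hmox1*, *Steap4* and *Lcn2*. For *Lcn2* the margin was 0.070 log2 units in Apc1322T adenomas (6.78 against 6.71). *Heph*, *Tfrc* and *Ftl1* had other orders.

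*Hmox1* (chromosome 8, 75093621 to 75100589), which encodes the haem oxygenase that frees iron from haem in enterocytes and macrophages, had 4.49, 4.48 and 3.64 log2 CPM in Apc1322T and 5.01, 3.28 and 5.18 in ApcMin adenomas. It was low where *Cybrd1* was low, and spanned 3.73-fold within ApcMin adenomas. The log2 fold change between the genotypes was 0.45 (SE 0.50, edgeR adjusted p = 0.678), with overlapping libraries. The summed level of 8 macrophage markers was 142, 144 and 155 CPM in Apc1322T and 278, 153 and 191 CPM in ApcMin adenomas, with 7 of the 8 log2 fold changes above 0 (median 0.69). *Marco*, a further marker on that list, had 6 counts over all libraries. The share of macrophages in the *Hmox1* and *Slc40a1* values was not tested.

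Ferritin mRNA was the most abundant of the group. Per kilobase of the principal transcript, *Fth1* had between 2010 and 4998 CPM per kb and *Ftl1* between 973 and 1559, against 28.2 to 393 for *Slc11a2*, 19.8 to 309 for *Cybrd1*, 21.3 to 160 for *Slc40a1*, 6.13 to 23 for *Hmox1* and 1.93 to 6.73 for *Steap4*. On this length-corrected scale both ferritin chains lay above the other 8 genes in every library. *Slc11a2*, *Cybrd1*, *Slc40a1* and *Lcn2* (67.1 to 236 CPM per kb) overlapped over the libraries and have no fixed order. *Tfrc* (29.5 to 89.5) and *Heph* (25.1 to 53.1) overlapped each other and *Slc11a2*, *Cybrd1* and *Slc40a1*, and *Tfrc* also overlapped *Lcn2*. Within each library *Hmox1* and *Steap4* were lowest. Over the libraries *Steap4* overlapped *Hmox1* by a small margin, and *Hmox1* overlapped *Cybrd1* and *Slc40a1*.

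*Fth1* (chromosome 19, 9980598 to 9985098) had 11.66, 12.18 and 11.53 log2 CPM in Apc1322T and 11.40, 10.87 and 11.84 in ApcMin adenomas. ApcMin replicate 2 was again the lowest library, and the spread within ApcMin was 1.96-fold, narrower than for the transporters. *Ftl1* (chromosome 7, 45457944 to 45459884) had 10.17, 10.56 and 10.24 log2 CPM in Apc1322T and 10.09, 9.88 and 9.99 in ApcMin adenomas. Every Apc1322T library lay above every ApcMin library, by a margin of 0.078 log2 units, and no other member showed such a separation, which 21.0% of all genes tested had. The log2 fold change of *Ftl1* was -0.35 (SE 0.14, unadjusted p = 0.0431 and edgeR adjusted p = 0.320). That of *Fth1* was -0.40 (SE 0.29, adjusted p = 0.513). Single ferritin pseudogenes of near-identical sequence took up to 2.31% as many counts as *Ftl1* and up to 0.0168% as many as *Fth1*. These counts come from Salmon's own division of reads, so they cannot show how many shared reads were assigned to the wrong copy.

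The 6 epithelial markers had log2 fold changes from -0.49 (*Cdx2*) to -0.077 (*Krt18*), with a median of -0.33 and edgeR adjusted p of at least 0.286. Of these markers 5 did not overlap between the genotypes, beside 21.0% of all genes tested. The 6 fibroblast markers all lay higher, with a median of 1.01. The values of *Ftl1* (-0.35), *Fth1* (-0.40) and *Lcn2* (-0.489) lie within the range of the 6 epithelial markers. Those of *Heph* (-0.55) and *Steap4* (-0.033), also below 0, lie outside it. The part of epithelial content in the values of these members was not tested.

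*Tfrc* (chromosome 16, 32608920 to 32632794), through which dividing cells and red cell precursors take up transferrin iron, had 8.77, 7.17 and 7.19 log2 CPM in Apc1322T and 8.0, 7.88 and 7.97 in ApcMin adenomas. Apc1322T replicate 1 stood 1.58 log2 units above the next library of its genotype, and the ApcMin libraries lay between it and the other two, within 1.09-fold of each other. The log2 fold change between the genotypes was near 0 (0.025, SE 0.45, edgeR adjusted p = 0.982). This rested on the high library. Without Apc1322T replicate 1 the log2 fold change was 0.77 and the adjusted p 0.0429, when 1.22% of all genes had an adjusted p under 0.05. Without Apc1322T replicate 2 or 3 it was -0.24 in either case. The summed level of 7 red cell genes was 1067, 382 and 361 CPM in Apc1322T and 985, 510 and 482 CPM in ApcMin adenomas, highest in replicate 1 of both genotypes, and its part in the *Tfrc* values was not tested.

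*Lcn2* and *Steap4* link iron to inflammation, as lipocalin 2 binds bacterial siderophores and Steap4 is a ferric reductase induced by inflammatory cytokines. *Lcn2* (chromosome 2, 32384633 to 32388252) had 7.76, 6.78 and 6.71 log2 CPM in Apc1322T and 7.24, 5.94 and 6.56 in ApcMin adenomas. *Steap4* (chromosome 5, 7960457 to 7982213) had 4.10, 3.41 and 3.11 in Apc1322T and 4.41, 2.62 and 3.01 in ApcMin adenomas. Both were highest in replicate 1 of each genotype, as was *Tfrc*. That made 3 of the 10 genes, beside 13.7% of all genes tested. The genotype differences were -0.49 (SE 0.42, adjusted p = 0.577) for *Lcn2* and -0.033 (SE 0.52, adjusted p = 0.979) for *Steap4* in edgeR's quasi-likelihood test, each with overlapping libraries.

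Some inflammatory genes were highest in the same libraries. Of the 11 inflammation genes tested, 6 were highest in replicate 1 of both genotypes, as were 4 of 6 neutrophil markers and 13.7% of all genes tested. *S100a8*, a neutrophil alarmin, had 3.05, 0.39 and 1.39 log2 CPM in Apc1322T and 4.44, 0.61 and 1.51 in ApcMin adenomas. The summed level of the inflammation genes had another order, with 517, 673 and 943 CPM in Apc1322T and 1111, 699 and 289 CPM in ApcMin adenomas. *Duox2* was the most abundant gene of that list in every library, so the sum does not stand for the list as a whole. It had 7.51, 8.44 and 9.04 log2 CPM in Apc1322T and 8.44, 8.75 and 6.43 in ApcMin adenomas. *Duox2* and *Duoxa2* were the 2 genes of the list highest in Apc1322T replicate 3 and ApcMin replicate 2. The 6 neutrophil markers summed to 118, 71.4 and 77.1 CPM in Apc1322T and 171, 64.8 and 88.1 CPM in ApcMin adenomas. Among the neutrophil granule genes, *Elane* had 0 counts and *Mpo* 18.5 over all 6 libraries. *Ltf*, another granule gene, had 6.45, 5.98 and 5.91 log2 CPM in Apc1322T and 6.28, 5.74 and 6.17 in ApcMin adenomas. It was the most abundant marker of this list in every library, so the sum reflects mainly this gene. Neutrophils also express *Lcn2*, and their part in its values was not tested.

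None of the 8 members other than *Cybrd1* and *Slc40a1* passed an adjusted p of 0.01 between ApcMin and Apc1322T adenomas (edgeR's quasi-likelihood test), where 0% of all genes passed. The adjusted p ranged from 0.320 to 0.982. At an unadjusted p under 0.05 there was 1 gene, *Ftl1*, where 15.1% of all genes passed. DESeq2's Wald test called none of them either, while it called 1.11% of all genes. For *Cybrd1* and *Slc40a1* the log2 fold changes were 0.29 (SE 1.05) and 0.12 (SE 0.77). Over the 10 genes 5 log2 fold changes were above and 5 below 0, with a median of -0.0044 beside 0.017 for all genes.

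**Figure D3:**
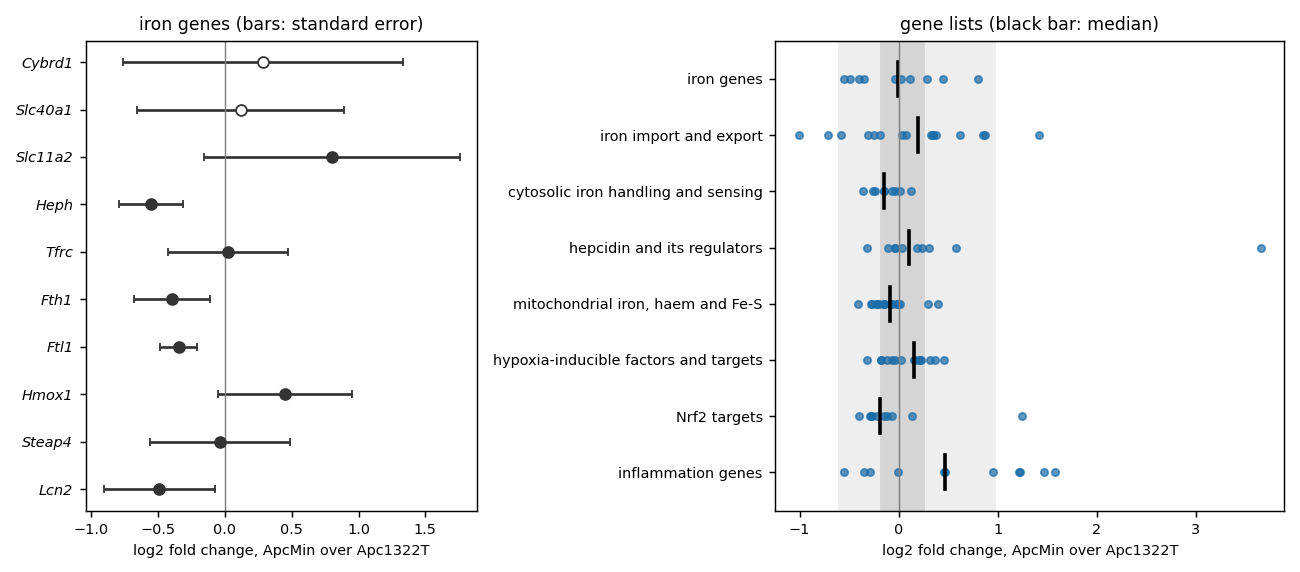
Log2 fold change of ApcMin over Apc1322T adenomas (horizontal axis in both panels). Left, each iron gene with its SE, with *Cybrd1* and *Slc40a1* as open circles because they are given without a test. Right, every gene tested of the iron genes and of 7 related lists, with the list median as a black bar, over the middle 50% (dark grey) and 90% (light grey) of all genes; the list medians lie between -0.19 and 0.47.

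Markers of gut region were read beside the absorption genes, since duodenum and ileum differ in iron uptake. *Pdx1*, a transcription factor of the duodenum, had 4.84, 5.29 and 3.51 log2 CPM in Apc1322T and 4.82, 2.10 and 5.22 in ApcMin adenomas, lowest in the libraries where *Cybrd1* was lowest. The calcium channel gene *Trpv6* was also lowest there, as was *Onecut2* by small margins, so that 3 of 8 proximal markers had this order, beside 14.6% of all genes tested. Of 5 endothelial markers 3 had it as well, so it was not particular to proximal markers. *S100g*, a calcium-binding protein of proximal enterocytes, was lowest in Apc1322T replicate 3 (4.32 against 6.39 and 8.68) but not in ApcMin replicate 2 (8.08, against 7.72 and 9.58). The 8 proximal markers summed to 478, 1360 and 1096 CPM in Apc1322T and 586, 722 and 1133 CPM in ApcMin adenomas. The sum was not lowest in either library with low *Cybrd1*, but it reflects mainly the abundant markers and not the list as a whole. *Lct* was the most abundant of them in Apc1322T replicates 2 and 3, and *S100g* in every ApcMin library. *Lct*, the lactase gene, went the other way, with 6.40, 9.07 and 9.59 in Apc1322T and 6.29, 7.72 and 2.63 in ApcMin adenomas.

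The 10 enterocyte markers summed to 17750, 30480 and 30500 CPM in Apc1322T and to 11310, 22350 and 12330 CPM in ApcMin adenomas. Both libraries with the lowest *Cybrd1* thus had the highest sum of their genotype, and *Alpi* was the single enterocyte marker lowest in both. *Apoa4* was the most abundant of the 10 markers except in ApcMin replicate 1, where *Apoa1* was, so the sum does not stand for the list. Within Apc1322T adenomas *Apoa4* was higher in replicate 2 than in replicate 3 (13.49 against 13.29 log2 CPM). *Anpep*, a brush border peptidase, had 8.04, 10.75 and 11.35 log2 CPM in Apc1322T and 9.91, 10.34 and 7.09 in ApcMin adenomas, the reverse of the order of *Slc11a2* within each genotype. In Apc1322T adenomas, however, replicate 2, with *Cybrd1* at 9.54, had nearly the same sum as replicate 3, with *Cybrd1* at 7.16. The part of enterocyte content in the levels of *Cybrd1*, *Slc40a1* and *Slc11a2* was not tested.

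The 7 distal markers summed to 100, 240 and 281 CPM in Apc1322T and to 482, 509 and 96.4 CPM in ApcMin adenomas, highest within each genotype in the library with the lowest *Cybrd1*. Of these markers 5 were highest in Apc1322T replicate 3 and ApcMin replicate 2, as were 13.8% of all genes tested, and they were *Slc10a2*, *Slc51a*, *Slc51b*, *Cubn* and *Mep1a*. The same order was found in 7 of 10 enterocyte and 4 of 5 smooth muscle markers, so it was not particular to distal markers. *Slc10a2*, the ileal bile acid transporter, had 2.01, 2.48 and 3.11 log2 CPM in Apc1322T and 6.04, 6.29 and 2.18 in ApcMin adenomas. *Cubn*, a receptor for intrinsic factor, had 3.62, 5.43 and 5.77 in Apc1322T and 5.51, 5.95 and 2.75 in ApcMin adenomas. The libraries lowest for *Cubn* were Apc1322T replicate 1 and ApcMin replicate 3, where *Cybrd1* was highest. Among the iron genes *Heph* alone was highest in the same libraries as these markers, in ApcMin by 7.35 against 7.31. Whether the adenomas came from different positions in the intestine was not tested.

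**Figure D4:**
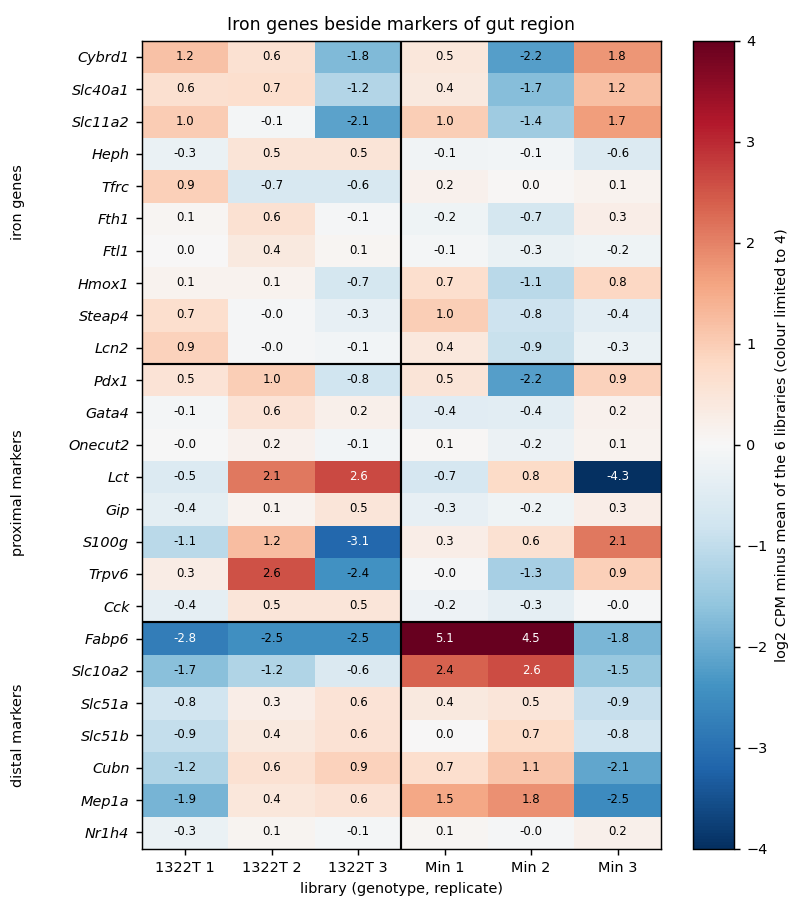
Difference of each library's log2 CPM from the gene's mean over the 6 libraries (columns, by genotype and replicate) for the iron genes, 8 proximal and 7 distal markers of the small intestine (rows); red is above and blue below the mean. *Cybrd1*, *Slc40a1*, *Slc11a2* and *Pdx1* are below their mean in Apc1322T replicate 3 and ApcMin replicate 2, and *Lct* is not.

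Beyond these members, 96 genes of iron handling and of pathways that bear on it were looked up, of which 90 were tested. In edgeR's quasi-likelihood test 0 had an adjusted p under 0.01, and at an unadjusted p under 0.05 there were 5 higher and 6 lower in ApcMin adenomas, where 7.49% and 7.60% of all genes were higher and lower. Their median log2 fold change was -0.038, and 13 of the 90 did not overlap between the genotypes, beside 21.0% of all genes tested. DESeq2's Wald test called 2 of them, *Tmprss6* and *Slc7a11*.

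Among the 16 genes of iron import and export, *Steap2*, a metalloreductase like *Steap4*, had 4.39, 3.90 and 4.22 log2 CPM in Apc1322T and 4.87, 4.66 and 4.88 in ApcMin adenomas (log2 fold change 0.62, SE 0.15, edgeR adjusted p = 0.257), without overlap. *Slc22a17*, the lipocalin 2 receptor, also did not overlap, at 0.85 (SE 0.30, adjusted p = 0.30). *Trf*, which encodes transferrin, the ligand of the *Tfrc* product, had a log2 fold change of -0.71 (SE 0.29, adjusted p = 0.331) with overlapping libraries. *Cp*, which encodes the ferroxidase ceruloplasmin, a relative of hephaestin, overlapped, at 0.38 (SE 0.47). *Slc46a1*, a proton-coupled folate transporter that also carries haem, had 6.91, 8.19 and 8.12 log2 CPM in Apc1322T and 6.71, 6.77 and 7.01 in ApcMin adenomas, so that Apc1322T replicate 1 lay with the ApcMin libraries. Its order differed from that of *Cybrd1*.

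The 9 tested genes of cytosolic iron handling held 5 with the library order of *Cybrd1*, or 55.6%, beside 14.6% of all genes and 21 of the 90 genes looked up. The order was chosen after the values were seen, and some margins were small, as for *Blvrb* in Apc1322T adenomas (5.68 against 5.71). The widest of them was *Ncoa4*, the receptor that delivers ferritin to lysosomes, with 9.55, 9.53 and 8.75 log2 CPM in Apc1322T and 9.01, 8.43 and 9.78 in ApcMin adenomas. The iron regulatory proteins, which bind the hairpins shown above, are encoded by *Aco1* and *Ireb2*. *Aco1* had 6.95, 7.10 and 7.20 in Apc1322T and 6.74, 6.71 and 6.71 in ApcMin adenomas, without overlap (log2 fold change -0.36, SE 0.089, edgeR adjusted p = 0.262). *Ireb2* overlapped, at -0.062 (SE 0.11).

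*Hamp*, which encodes hepcidin, the hormone that degrades ferroportin, is made mainly in the liver and had between 28 and 86 counts per library here. *Tmprss6*, a protease that restrains hepcidin in the liver, had 8, 4 and 6 counts in Apc1322T and 43, 47 and 210 in ApcMin adenomas (log2 fold change 3.66, SE 0.77, edgeR adjusted p = 0.257 and 3.3e-04 in DESeq2's Wald test). All 3 ApcMin libraries lay above the Apc1322T libraries, and ApcMin replicate 3 held most of the counts. *Acvr1*, a BMP receptor gene, was separated by a small difference (0.18). *Smad4*, a mediator of BMP signals to hepcidin, was lower without overlap (-0.32, SE 0.088, edgeR adjusted p = 0.279).

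Of the 19 genes of mitochondrial iron, haem and iron-sulfur clusters, 16 had log2 fold changes below 0, with a median of -0.088, and all lay between -0.41 and 0.39. *Ppox*, of haem synthesis, was higher without overlap (0.30). *Alad* and *Glrx5*, of haem and iron-sulfur synthesis, did not overlap between the genotypes (-0.27 and -0.28). The 15 genes of hypoxia-inducible factors and their targets had a median of 0.16. *Epas1*, which encodes hypoxia-inducible factor 2α, had 6.39, 6.25 and 6.02 log2 CPM in Apc1322T and 6.44, 6.05 and 6.61 in ApcMin adenomas. It was lowest in the same libraries as *Cybrd1* but over a range of 0.59 log2 units. This order was found in 5 of the 15 genes, beside 14.6% of all genes tested. *Epas1* and *Hamp* were singled out after their values were seen. *Vhl*, whose product marks these factors for decay, did not overlap (0.17), and *Vegfa* was higher in ApcMin adenomas without overlap (0.37, SE 0.099, edgeR adjusted p = 0.279). The list of Nrf2 targets, a regulator that also acts on *Hmox1* and the ferritin genes, had a median of -0.19 over 10 genes. It holds *Nfe2l2*, which encodes Nrf2, its inhibitor *Keap1* and the repressor *Bach1*, all 3 below 0, and of the other 7 genes 5 were below 0 (median -0.15). *Slc7a11*, a cystine importer, was the exception without overlap, at 1.25 (SE 0.28, edgeR adjusted p = 0.257 and 0.00676 in DESeq2's Wald test).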

How the data were processed

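Libraries from excised adenomas, 3 of Apc1322T/+ and 3 of ApcMin/+ mice, were sequenced as single-end stranded reads. Transcripts of GRCm38 (GRCm38.p6 in the submitters' processing notes) were quantified by the authors with Salmon, and they deposited estimated counts per Ensembl gene, without scaling for library size. Estimated counts were rounded, and 34652 of 34866 identifiers were matched to GENCODE M21 symbols. Genes were kept with filterByExpr at a minimum count of 10 and total of 15, scaled by TMM and tested in edgeR 4.0.16 (quasi-likelihood, robust) under R 4.3.3, with Benjamini-Hochberg adjustment over all genes and the threshold of the study, 0.01. Dividing a log2 fold change by the square root of F gave its standard error. A prior count of 2 entered log2 CPM. DESeq2 1.42.0 and limma 3.58.1 (voom) were alternatives, besides other normalizations, filters, a threshold of 0.05, the replicate number as a block and each library left out. The edgeR test with and without the block, DESeq2's Wald test and limma-voom were first run on simulated data in which 200 genes had been changed. The other normalizations and filters and the fits with a library left out were not. The members and lists were chosen with earlier results of these data known. Genes named are the members, the genes without overlap of largest change in each list, partners of the members, markers that show a list's range and, for *Cybrd1* and *Slc40a1*, the 5 genes of most similar pattern. The order of libraries counted here was chosen after the values were seen.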

Additional observations from a re-analysis of the deposited data

How the results depend on the processing

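Among the 8 members other than *Cybrd1* and *Slc40a1*, the number with an adjusted p under 0.01 was 0 under every alternative run. These runs included other normalizations, filters and tests. For the other genes of iron handling the number was 0 except with DESeq2's Wald test, which called 2. Over all genes it was 0 except for 194 with DESeq2's Wald test, 1 without a filter and 1 without ApcMin replicate 3. None of the 8 members passed an adjusted p of 0.05 in the edgeR fit with all libraries. The direction of *Steap4* and *Tfrc* is not settled: the log2 fold change of *Steap4* was -0.033 and became 0.016 with upper quartile scaling, and with each library left out it ranged from -0.78 to 0.32. That of *Tfrc* was 0.025 and ranged from -0.24 to 0.77, the last without Apc1322T replicate 1. For the median over the 10 genes the corresponding range was -0.38 to 0.33. *Cybrd1* ranged from -0.77 to 0.86 and *Slc40a1* from -0.58 to 0.59, and with all libraries kept limma-voom gave -0.025 and -0.11, so that the direction of both depends on single libraries and on the method. *Slc11a2*, *Hmox1*, *Heph*, *Fth1*, *Ftl1* and *Lcn2* kept their direction under all alternatives, but their size moved with single libraries left out: *Slc11a2* from 0.14 (without ApcMin replicate 3) to 1.66 (without Apc1322T replicate 1), *Hmox1* from 0.14 to 0.84, *Lcn2* from -0.89 to -0.062, *Fth1* from -0.66 to -0.18, *Ftl1* from -0.42 to -0.22 and *Heph* from -0.76 to -0.42. The median range over the libraries was between 1.47 and 1.81 log2 units when single libraries were left out. The count of 7 genes with the shared library order lay between 7 and 8 under other scalings. Same-numbered libraries of the 2 genotypes did not deviate together (correlations of -0.014, 0.16 and -0.29). With 3 libraries per genotype this cannot exclude that the numbers pair them. Over all genes tested the largest positive correlation was 0.329, of Apc1322T replicate 1 with ApcMin replicate 3. Next was 0.28, of Apc1322T replicate 3 with ApcMin replicate 2, the libraries of the shared low order. With the replicate number as a block the median log2 fold change was -0.22, and the values of *Cybrd1* and *Slc40a1* were -0.26 and -0.12. Of the other 8 members 0 were called in that fit. For these well-counted genes the spread between libraries, not depth, limits the comparison.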

Other observations

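*Fabp6*, an ileal bile acid binding protein, did not follow the order of most distal markers. It had 6.99, 6.37 and 0.075 log2 CPM in ApcMin replicates 1, 2 and 3, and between -0.86 and -0.53 in Apc1322T adenomas. ApcMin replicate 1 therefore held *Fabp6* together with *Cybrd1* at 9.40 and *Slc11a2* at 9.52 log2 CPM, and ApcMin replicate 2 held it with both genes low (6.73 and 7.11). In Apc1322T replicate 3, where they were also low (7.16 and 6.42), *Fabp6* was at -0.54, while *Slc10a2*, *Slc51a*, *Slc51b*, *Cubn* and *Mep1a* were at their highest in that genotype. *Fabp6* was singled out after its values were seen.

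The genes most like *Cybrd1* over the 6 libraries, among 10776 with a mean of at least 3 log2 CPM, were *Mrps10* (Pearson's r 0.992), *Bphl* (0.989), *Scarb1* (0.987), *Degs1* (0.983) and *Clpp* (0.980). For *Slc40a1* they were *Mrps10* (0.996), *Scarb1* (0.989), *Slc50a1* (0.984), *Clpp* (0.983) and *Degs1* (0.977). These genes were picked as the most similar of many, the libraries with low *Cybrd1* set much of the likeness, and no p is given. An r of at least 0.95 with *Cybrd1* was found for 31 genes (0.288%). *Scarb1*, a lipoprotein receptor of enterocytes, had 6.38, 6.33 and 5.38 log2 CPM in Apc1322T and 6.06, 5.08 and 6.81 in ApcMin adenomas, whereas *Mrps10*, of the mitochondrial ribosome, moved only between 4.81 and 5.05.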
